A study of Rattus norvegicus with 12 samples.

Results

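The 9 genes Fkbp5, Tsc22d3, Nfkbia, Sgk1, Ddit4, Errfi1, Zbtb16, Klf9 and Cebpd, which are induced by glucocorticoids in many tissues, were followed in the prefrontal cortex of young female rats after betamethasone exposure before birth. They were found by the gene name that the array's annotation gives each probe, which yielded 10 probes on 19 spots, out of 30367 probes for 26214 gene names on 42877 spots. Ddit4 had 2 probes, and each of the other 8 genes had 1. All 10 probes were well above background in all 12 samples, and all 10 entered the test.

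Total RNA of Sprague-Dawley rats sampled on postnatal day 15 was hybridised to 6 two-colour Agilent oligonucleotide arrays, on which each dye channel held 1 animal. The FBK group (n = 4) had dams given 2 injections of betamethasone, a synthetic glucocorticoid, at 0.4 mg/kg each on gestational day 15, and received ketamine, an NMDA receptor blocker, at 35 mg/kg on postnatal day 14. The FBS group (n = 4) had the same betamethasone exposure and received saline on postnatal day 14. The FSS control group (n = 4) had saline-injected dams and received saline on postnatal day 14. The treatment protocol speaks of rats that showed infantile spasms on the day of the postnatal injection, and the labels do not say which sampled animals did. The labels give no litter, so animals of 1 group may share a dam, and the p-values then measure the spread between these animals only. The scan files and the deposited value table disagree on which FSS array holds samples 1 and 2 and which holds 3 and 4, so the numbers of single FSS samples may be exchanged between the arrays, which leaves the group values as they are. A field for developmental stage gives another age than the sample descriptions, which name postnatal day 15.

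Glucocorticoids act through the glucocorticoid receptor (Nr3c1), a transcription factor that enters the nucleus on binding hormone and attaches to a palindromic response element near its targets. Several of its induced genes close feedback loops: Fkbp5 restrains the receptor itself, Nfkbia and Tsc22d3 restrain inflammatory signalling, and others alter growth factor, kinase and metabolic signalling. These transcripts rise within hours of a hormone pulse and fall again when it ends. In the experiment, the betamethasone was given to the dam before birth and the cortex was taken on postnatal day 15, so the values are levels long after the injection.

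Some sequences are shown to make the measurements concrete. The array reads the Nfkbia transcript through a 60-base probe at rn4 chr6:75730438-75730497 (minus strand) and the Ddit4 transcript through, among others, a 60-base probe at rn4 chr20:27253126-27253185 (minus strand). These probes carry the gene with the clearest group separation and the second reading of the gene with 2 probes.
Nfkbia probe: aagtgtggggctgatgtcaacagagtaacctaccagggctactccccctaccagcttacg
Ddit4 second probe: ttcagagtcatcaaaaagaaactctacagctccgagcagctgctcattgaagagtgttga
The other probes lie, on rn4, at chr20:6637600-6637659 for Fkbp5, chrX:128336564-128336623 for Tsc22d3, chr1:23501718-23501777 for Sgk1, chr20:27252567-27252626 for the first Ddit4 probe, chr5:168025720-168025779 for Errfi1, chr8:51934505-51934564 for Zbtb16 and chr1:226445625-226445684 for Klf9. The Cebpd probe is unmapped in the array's annotation. All were designed on mature transcripts, so they lie in exons, and the annotation does not say whether in coding or untranslated sequence.

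RefSeq promoter windows of 300 bases, 250 before and 50 after the annotated start (GRCr8), were given for 7 of the 9 genes, 3 each for Tsc22d3 and Sgk1 and 1 each for Fkbp5, Nfkbia, Klf9, Ddit4 and Errfi1. Zbtb16 and Cebpd had none. The response element (AGAACA, 3 free bases, then TGTTCT, which reads the same on both strands), matched with up to 2 mismatches outside the spacer, occurred in 0 of these 11 windows, against 1.87% of all 33469 windows. Its 6-base arms, AGAACA or TGTTCT on either strand, which also lie within the element, occurred in 0 of 11 windows, against 20.7% of all windows. These letters are therefore not in these windows, which leave out introns and distant enhancers. The NF-kB decamer, a motif looked for after the values had been seen because NF-kB also drives Nfkbia, occurred in the Nfkbia window and in 7.51% of all windows. It did not occur in the windows of the other 6 genes. The 250 bases before the start of Nfkbia (GRCr8 chr6:78597073-78597322, minus strand) are shown with the decamer in capitals, beginning 31 bases before the start. Those of Fkbp5 (GRCr8 chr20:6543556-6543805, minus strand), which hold no match to any of these motifs, are shown for contrast, since Fkbp5 is the most widely used readout of receptor activity. In human and mouse cells its best known response elements lie in introns, outside such a window. The Fkbp5 stretch is 76% G or C and the Nfkbia stretch 57.6%.
Nfkbia upstream: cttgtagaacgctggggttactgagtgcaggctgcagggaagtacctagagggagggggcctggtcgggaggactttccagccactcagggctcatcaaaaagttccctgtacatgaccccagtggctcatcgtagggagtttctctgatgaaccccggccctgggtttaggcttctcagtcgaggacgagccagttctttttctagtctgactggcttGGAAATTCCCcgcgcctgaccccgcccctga
Fkbp5 upstream: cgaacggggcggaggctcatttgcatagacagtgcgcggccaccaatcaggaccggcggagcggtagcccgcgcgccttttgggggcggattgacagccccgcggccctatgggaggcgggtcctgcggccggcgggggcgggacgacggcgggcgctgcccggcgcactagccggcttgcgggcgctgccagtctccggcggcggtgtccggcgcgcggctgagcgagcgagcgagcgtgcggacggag

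Values are log2 intensities after normalization, 1 per sample, and a change is the difference of group means on that scale. A call needed an adjusted p under 0.05 from limma, fitted over all 21533 probes tested and adjusted by the method of Benjamini and Hochberg. The arrays set 2 limits. The FSS arrays were on slide A and the FBK and FBS arrays on slide B, so a comparison with FSS is also one between slides and the effects cannot be told apart, while FBK against FBS lies within slide B. The FBK1 and FBK2 samples, which shared 1 array, stood apart from the other 10 samples. A first principal component (43.1% of the variance) was computed over those of the tested probes that had a value in all 12 samples. On it FBK1 and FBK2 had scores of 57.8 and 55.7, against −21.5 to −7.27 elsewhere. Areas of spots that departed from the other arrays held 4.55% of that array's spots, none of them a spot of the 9 genes. The cortical genes Tbr1 and Cux2 were well above background in all 12 samples. Of 4 choroid plexus markers, Kcnj13 was well above background in 12 samples, Ttr in 11, Folr1 in 7 and Kl in 0. Of 4 striatal markers, Drd2, Ppp1r1b and Adora2a were well above background in 12 samples, and Drd1 in 5. As tissue RNA was measured, fewer cells of a type and less RNA per cell cannot be told apart.

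No gene of the 9 passed the threshold in any comparison. In FBS against FSS 0 of 9 passed, where 0.214% of all probes did (46 probes, 28 higher and 18 lower). In FBK against FSS 0 of 9 passed, where 0.0789% of all probes did (17 probes, 11 higher and 6 lower). In FBK against FBS 0 of 9 passed, where 0% of all probes did. At an unadjusted p under 0.05, the counts were 2 of 9 in FBS against FSS (11.4% of all probes), 2 of 9 in FBK against FSS (13.8%) and 0 of 9 in FBK against FBS (680 probes, 3.16%). The 95% intervals of the changes reached 0.265 to 0.793 to either side, with a median of 0.472 on the log2 scale. These intervals are not adjusted for the number of probes, and a change larger than its interval could still miss the threshold, as Nfkbia did.

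The genes did not shift in a common direction. In FBS against FSS 6 of the 9 lay above 0 (56.3% of all probes), with a median change of 0.06 against 0.03 over all probes. In FBK against FSS 6 lay above 0 (64% of all probes), with a median of 0.04 against 0.07. In FBK against FBS 4 lay above 0 (63.2% of all probes), with a median of −0.09 against 0.05. The median size of a change, without its sign, was 0.0832 for the 9 genes and 0.131 for all probes in FBS against FSS, 0.246 and 0.15 in FBK against FSS, and 0.173 and 0.109 in FBK against FBS. The SE of a change was also larger for the 9 genes, with a median of 0.214 against 0.145 over all probes in each comparison. The FBK group in these comparisons includes FBK1 and FBK2, which stood apart from the other samples.

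**Figure D1:**
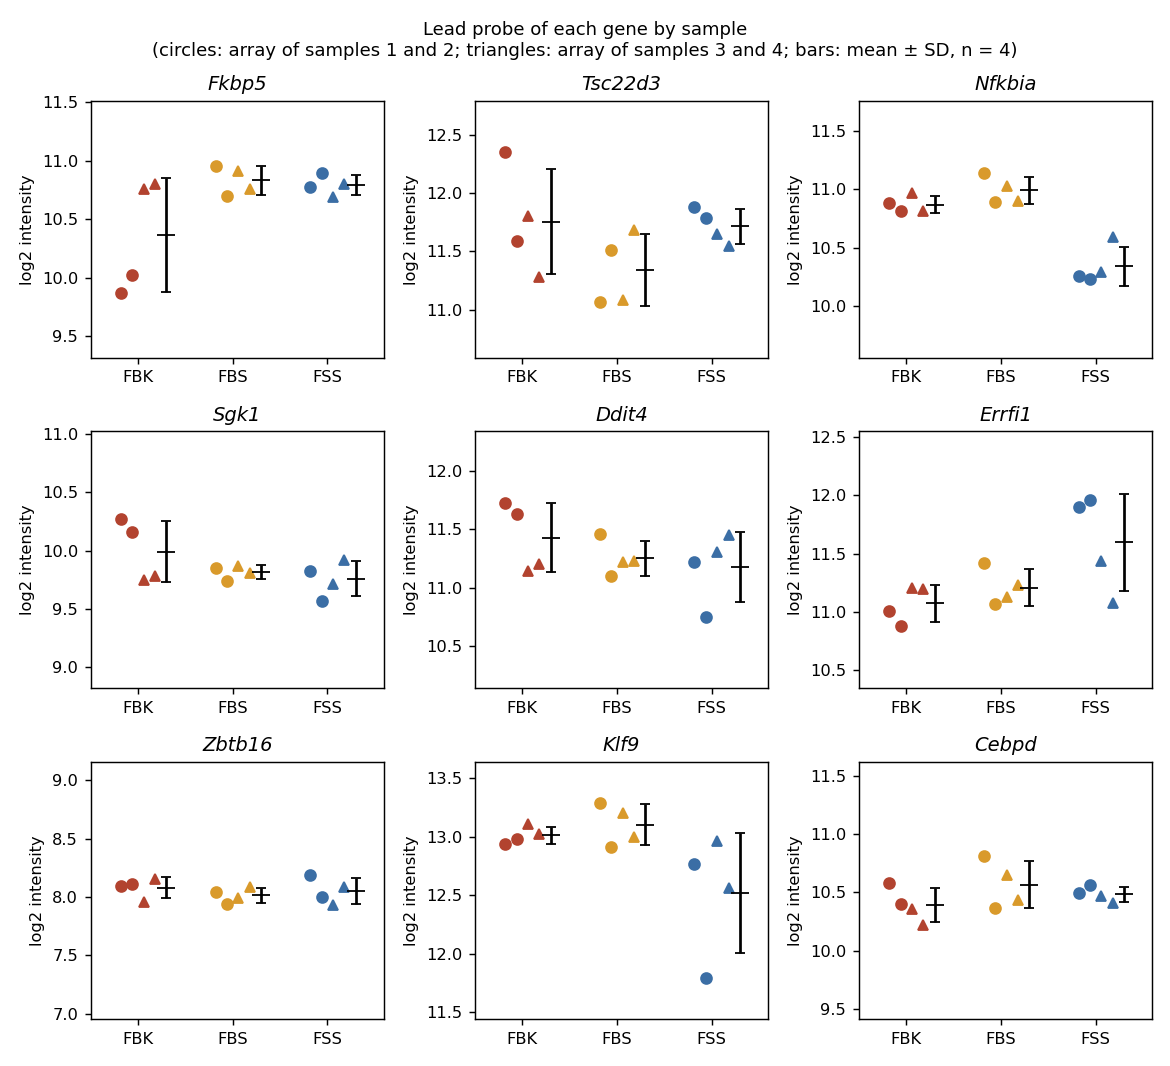
Log2 intensity (vertical axis, the same span of 2.2 units in each panel) of the lead probe of each gene in each sample of FBK, FBS and FSS, with circles for the array of samples 1 and 2, triangles for that of samples 3 and 4, and bars for the mean ± SD (n = 4). Nfkbia is the gene whose FSS samples (10.23 to 10.59) all lie below the FBK and FBS samples (10.81 to 11.14), and Fkbp5 is low in FBK1 and FBK2 alone.

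Among the genes that feed back on hormone or inflammatory signalling, Nfkbia showed the clearest separation. It encodes the inhibitor that holds NF-kB in the cytoplasm, and is induced both by glucocorticoids and by NF-kB. Its log2 intensity was 10.88, 10.81, 10.96 and 10.81 in the FBK samples, 11.14, 10.89, 11.03 and 10.90 in the FBS samples, and 10.25, 10.23, 10.29 and 10.59 in the FSS samples. Every FBK and FBS sample lay above every FSS sample, and the FBK and FBS samples overlapped. Of the 9 genes, Nfkbia was the only 1 whose groups did not overlap in FBS against FSS (17.5% of all probes did not) or in FBK against FSS (15.6%), and in FBK against FBS the groups of all 9 overlapped (groups of 4% of all probes did not). Non-overlap was thus no more frequent among the 9 genes than among all probes.

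The Nfkbia change in FBS against FSS was 0.65 (SE 0.14), or 1.57-fold with a 95% interval of 1.26 to 1.96. Its limma p was 0.000977, rank 170 of 21533 probes, and its adjusted p was 0.123, which missed the threshold. In FBK against FSS the change was 0.53 (SE 0.14), or 1.44-fold with an interval of 1.15 to 1.80, with a limma p of 0.00402 and an adjusted p of 0.221. Between FBK and FBS, on 1 slide, the difference was −0.12, with an interval of −0.44 to 0.20 (limma adjusted p = 0.918). Both comparisons with FSS share the FSS samples and set slide B against slide A. Within the FSS group, FSS4 stood highest. Without FSS4, Nfkbia passed in FBS against FSS (0.75, limma adjusted p = 0.0214) and in FBK against FSS (0.63, limma adjusted p = 0.0344), where 0.199% and 0.109% of all probes passed. As FSS4 was the FSS sample nearest to FBK and FBS, leaving it out had to widen the difference. With any other single sample left out, Nfkbia did not pass.

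NF-kB is active in glia and vessels as well as neurons, so marker levels are given beside Nfkbia. All 7 microglial markers were well above background. Their summed intensity was 30291 to 31953 in FBK, 27793 to 30227 in FBS and 24607 to 28851 in FSS. In FBK against FSS 6 of 7 lay above 0 (64% of all probes), and in FBS against FSS 5 of 7 (56.3% of all probes). Itgam lay below 0 in both (−0.22 and −0.47), and P2ry12 in FBS against FSS (−0.13). The 6 endothelial markers tested summed to 9208 to 12380 in FBK, 8876 to 11046 in FBS and 7020 to 10182 in FSS, and 3 of 6 lay above 0 in FBK against FSS (median 0.02) and 4 of 6 in FBS against FSS. The tight junction gene Cldn5 was 0.76 higher in FBK than in FSS, while Ocln was lower by a change of −0.29. Of 7 astrocyte markers, 5 lay above 0 in FBK against FSS (median 0.15) and 3 in FBS against FSS (median −0.07). Of 6 neuronal markers tested, 5 lay above 0 in FBK against FSS (median 0.14) and 4 in FBS against FSS (median 0.11). None of these markers passed the threshold, and their part in the Nfkbia values was not tested.

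Fkbp5 encodes a co-chaperone that lowers the receptor's affinity for hormone, and its transcript is a standard readout of receptor activity. It measured 9.87, 10.02, 10.76 and 10.80 in the FBK samples, 10.96, 10.70, 10.91 and 10.76 in the FBS samples, and 10.77, 10.90, 10.69 and 10.80 in the FSS samples. FBS and FSS occupied the same range, and FBK1 and FBK2 lay below every other sample while FBK3 and FBK4 lay within that range. In FBS against FSS the change was 0.04 with an interval of −0.45 to 0.53 (limma adjusted p = 0.969). FBK differed from FBS by −0.47 (SE 0.22, limma adjusted p = 0.910) and from FSS by −0.43 (SE 0.22, limma adjusted p = 0.406). Without the array of FBK1 and FBK2 these were −0.05 and −0.01. With that array alone for FBK they were −0.89 (limma adjusted p = 0.00279) and −0.85 (limma adjusted p = 0.00315), in a setting where 11.9% and 16.2% of all probes passed.

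Tsc22d3, also called GILZ, encodes a leucine zipper protein that mediates part of the anti-inflammatory action of glucocorticoids. It measured 12.35, 11.59, 11.80 and 11.28 in the FBK samples, 11.07, 11.51, 11.09 and 11.69 in the FBS samples, and 11.88, 11.79, 11.65 and 11.55 in the FSS samples. It had the widest intervals of the 9 genes, and all 3 groups overlapped. The 2 animals on 1 array differed: the Cy5 animal minus the Cy3 animal gave −0.76 and −0.52 on the FBK arrays, 0.44 and 0.60 on the FBS arrays and −0.09 and −0.10 on the FSS arrays. Dye and animal cannot be told apart within an array. The change was −0.38 (SE 0.36, limma adjusted p = 0.756) in FBS against FSS, 0.04 (limma adjusted p = 0.968) in FBK against FSS and 0.42 (SE 0.36, limma adjusted p = 0.910) in FBK against FBS.

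Among the genes of kinase and growth signalling, Sgk1 encodes a kinase of ion transport and cell survival. Its values were 10.27, 10.16, 9.75 and 9.78 in the FBK samples, 9.85, 9.74, 9.87 and 9.81 in the FBS samples, and 9.82, 9.57, 9.72 and 9.92 in the FSS samples. FBK1 and FBK2 lay above all other samples, and FBK3 and FBK4 lay among the FBS and FSS samples. The changes were 0.06 in FBS against FSS (limma adjusted p = 0.929), 0.23 in FBK against FSS (SE 0.16, limma adjusted p = 0.508) and 0.17 in FBK against FBS (SE 0.16, limma adjusted p = 0.910). Without the array of FBK1 and FBK2 the FBK changes were 0.01 against FSS and −0.05 against FBS. With that array alone for FBK, the change against FSS was 0.46 (limma adjusted p = 0.0350), where 16.2% of all probes passed.

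Ddit4, also called Redd1, encodes an inhibitor of mTORC1 that is induced by stress, low oxygen and glucocorticoids. Its lead probe measured 11.72, 11.64, 11.15 and 11.20 in the FBK samples, 11.46, 11.10, 11.22 and 11.23 in the FBS samples, and 11.22, 10.76, 11.30 and 11.45 in the FSS samples. FBK1 and FBK2 were again the highest, FSS2 the lowest, and the groups overlapped. The changes were 0.07 in FBS against FSS (limma adjusted p = 0.939), 0.25 in FBK against FSS (limma adjusted p = 0.612) and 0.17 in FBK against FBS (limma adjusted p = 0.921). The second probe gave −0.01, 0.22 and 0.23 in the same order. Without the array of FBK1 and FBK2, the lead-probe changes of FBK were −0.01 against FSS and −0.08 against FBS.

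The Ddit4 lead probe was printed on 10 spots, so the scatter of single spots within a sample can be given. Between 7 and 10 spots per sample were left after outlier spots were removed. The SD among them was 0.108 at the median sample, from 0.0511 in FBK2 to 0.307 in FSS2, and it was also 0.307 in FSS1 on the same array. The SD between the 4 samples of a group was 0.295 in FBK, 0.151 in FBS and 0.300 in FSS. A sample value is the mean of its spots, so these 2 kinds of SD do not divide the spread into parts. Different spots were left in different samples. In FSS4, spots of 11.79 and 11.63 were kept that were dropped as outliers in FBS1, FBS2 and FBS3. The sample means therefore depend in part on which spots were left. The 2 probes ran together over the 12 samples (Pearson r = 0.896, Spearman rho = 0.671), though they share the RNA and the array.

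**Figure D2:**
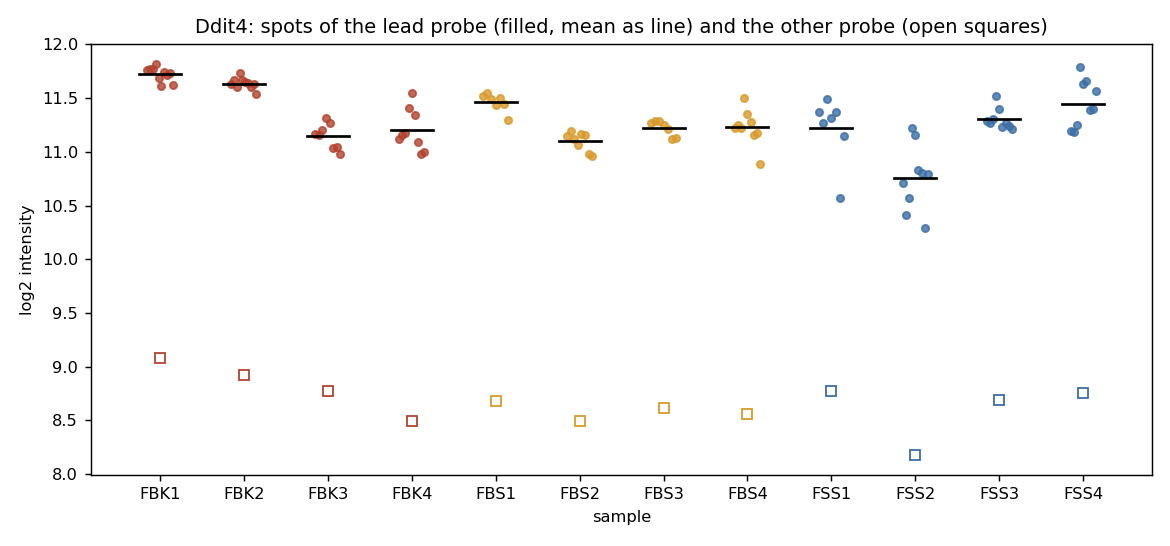
Log2 intensity of the Ddit4 spots (vertical axis) in each sample (horizontal axis), with filled points for single spots of the lead probe, lines for their mean and open squares for the second probe. The spots scatter least in FBK2 (SD 0.0511) and most in FSS1 and FSS2 (SD 0.307), and FSS2 is lowest on both probes.

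Errfi1, also called Mig6, encodes an inhibitor of the EGF receptor family. It measured 11.01, 10.88, 11.21 and 11.19 in the FBK samples, 11.42, 11.07, 11.12 and 11.23 in the FBS samples, and 11.90, 11.96, 11.44 and 11.08 in the FSS samples. FSS1, FSS2 and FSS3 lay above every FBK and FBS sample, while FSS4 lay among them, so the groups overlapped. The change was −0.52 in FBK against FSS (SE 0.21, limma adjusted p = 0.329), −0.39 in FBS against FSS (SE 0.21, limma adjusted p = 0.524) and −0.14 in FBK against FBS (limma adjusted p = 0.937). The size depended on the FSS array. Without FSS3 and FSS4 the FBK change against FSS was −0.86 (limma adjusted p = 0.0394, where 1.91% of all probes passed), and without FSS1 and FSS2 it was −0.18 (limma adjusted p = 0.75).

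Among the transcription factors, Klf9 encodes a Krüppel-like factor that responds to glucocorticoid and thyroid hormone in maturing neurons. It measured 12.94, 12.98, 13.11 and 13.02 in the FBK samples, 13.29, 12.91, 13.21 and 13.00 in the FBS samples, and 12.77, 11.79, 12.97 and 12.56 in the FSS samples. FSS2 was the lowest by a wide margin, and only FSS3 reached into the range of FBK and FBS. The change was 0.58 in FBS against FSS (SE 0.26, limma adjusted p = 0.434), 0.49 in FBK against FSS (SE 0.26, limma adjusted p = 0.419) and −0.09 in FBK against FBS (limma adjusted p = 0.972). The 2 genes under an unadjusted limma p of 0.05 were Nfkbia and Klf9 (0.0481) in FBS against FSS, and Nfkbia and Errfi1 (0.0333) in FBK against FSS. Without FSS1 and FSS2, the Klf9 change was 0.34 in FBS against FSS and 0.25 in FBK against FSS.

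Zbtb16, also called PLZF, encodes a zinc finger repressor. Of the 9 genes it had the smallest range over the 12 samples, from 7.95 to 8.16 in FBK, from 7.94 to 8.09 in FBS and from 7.93 to 8.18 in FSS. Its changes were −0.04 in FBS against FSS (limma adjusted p = 0.946), 0.03 in FBK against FSS (limma adjusted p = 0.924) and 0.06 in FBK against FBS (limma adjusted p = 0.948). All 3 groups covered nearly the same range. The values of this dim probe depended on the processing. With scaling to the 75th percentile and no loess, the Zbtb16 changes were −0.64 in FBS against FSS, 0.20 in FBK against FSS and 0.84 in FBK against FBS, and with the processed signals they were 0.15, 0.45 and 0.30.

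Cebpd encodes a C/EBP factor of the acute phase response. It measured 10.58, 10.40, 10.36 and 10.22 in the FBK samples, 10.81, 10.37, 10.65 and 10.44 in the FBS samples, and 10.50, 10.56, 10.47 and 10.41 in the FSS samples. The groups overlapped throughout. The changes were 0.08 in FBS against FSS (limma adjusted p = 0.877), −0.09 in FBK against FSS (limma adjusted p = 0.758) and −0.18 in FBK against FBS (SE 0.14, limma adjusted p = 0.910).

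**Figure D3:**
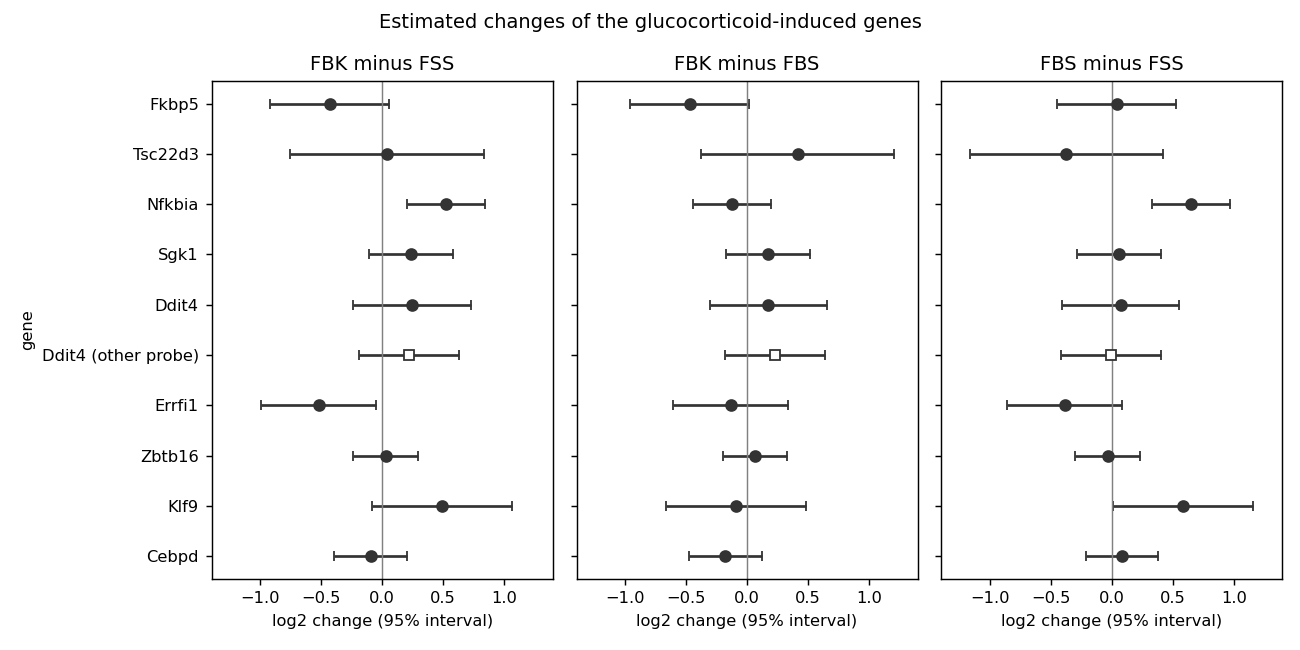
Estimated log2 change (horizontal axis) with its 95% interval for each gene (rows) in FBK minus FSS, FBK minus FBS and FBS minus FSS, with filled circles for lead probes and an open square for the second Ddit4 probe. The intervals of Nfkbia (0.21 to 0.85 and 0.33 to 0.97) lie above 0 in both comparisons with FSS, that of Klf9 (0.01 to 1.16) just above 0 in FBS minus FSS, and that of Errfi1 (−0.99 to −0.05) below 0 in FBK minus FSS, before adjustment.

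How far the 9 genes varied within a group depended on the array. The difference between the 2 arrays of a group had a median size of 0.255 over the 9 genes in FBK (0.194 over all probes), 0.0475 in FBS (0.0625) and 0.20 in FSS (0.155). In FBK, Fkbp5 was 0.84 lower on the array of FBK1 and FBK2, which was larger than the difference of 95.9% of all probes. Sgk1, Ddit4 and Tsc22d3 were 0.45, 0.51 and 0.42 higher on that array, larger than the differences of 84.8%, 88.4% and 82.6% of all probes but short of the 95th percentile. In FSS, Errfi1 was 0.67 higher and Klf9 fell by 0.49 on the array of FSS1 and FSS2 relative to FSS3 and FSS4. Nfkbia differed by −0.04 in FBK, 0.05 in FBS and −0.20 in FSS between arrays, each less than its change against FSS.

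**Figure D4:**
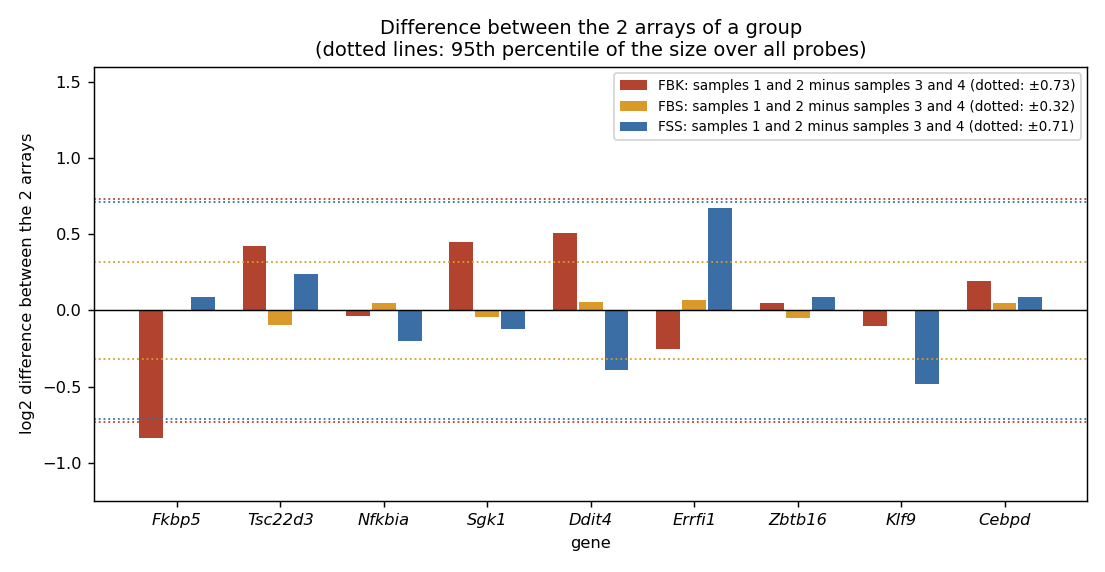
Log2 difference (vertical axis) between the 2 arrays of a group, samples 1 and 2 minus samples 3 and 4, for each gene (horizontal axis) in FBK, FBS and FSS, with dotted lines at the 95th percentile of the size over all probes. Fkbp5 in FBK (−0.84) is the bar beyond its group's line, and Errfi1 in FSS (0.67) comes close to its own.

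The 9 genes did not vary as a unit over the 12 samples. Of their 36 pairs, 20 correlated positively, with a median Pearson r of 0.095, and the points share arrays and groups. Sgk1 and Ddit4 ran most closely together (r = 0.912, rho = 0.797, n = 12, and r = 0.897 after group means were removed), also without FBK1 and FBK2 (r = 0.858, n = 10). Fkbp5 and Sgk1 ran most strongly opposite (r = −0.847, rho = −0.119, n = 12), and without FBK1 and FBK2 r was 0.140 (n = 10), so that relation rested on those samples. Nfkbia and Klf9 had r = 0.724 over 12 samples and 0.338 after group means were removed. The genes whose profile was most like the mean standardized profile of the 9 were Tbx18 (r = 0.914), Gabrd (0.905), Col5a1 (0.898), Tnxa-ps1 (0.884) and Slc39a1 (0.865), of 11630 named genes over the 12 samples. These are the highest of 11630 correlations with the mean of genes that did not vary as a unit, and they were not tested.

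A further list of 29 glucocorticoid-induced genes, including Per1, Dusp1, Cdkn1a and the metallothioneins, was read beside the 9. Of these 26 were tested, and 0 passed in either direction in each of the 3 comparisons. Of all probes, 0.214% passed in FBS against FSS, 0.0789% in FBK against FSS and 0% in FBK against FBS. The 0 of 26 is close to those shares. In FBS against FSS 17 of 26 lay above 0 (56.3% of all probes), with a median of 0.05 against 0.03 over all probes. In FBK against FSS 14 of 26 did (64% of all probes), with a median of 0.08 against 0.07. In FBK against FBS 13 of 26 did (63.2% of all probes), with a median of −0.01 against 0.05. The 3 with the smallest p in FBS against FSS were Sdpr, a caveolar protein gene, at −0.55 (SE 0.15, limma adjusted p = 0.203), the iron-binding lipocalin gene Lcn2 at 0.57 (SE 0.22, limma adjusted p = 0.364) and the small GTPase gene Rhob at 0.57 (SE 0.27, limma adjusted p = 0.457). Their values thus went in both directions, and none passed. Pdk4 was not well above background in any sample.

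The genes that receive or set the hormone signal did not pass either. Of 5 such genes 4 were tested, with the same shares of all probes passing. The mineralocorticoid receptor gene Nr3c2 averaged 9.75 ± 0.22 in FBK, 9.44 ± 0.15 in FBS and 9.79 ± 0.11 in FSS (SD, n = 4 each), a change of −0.36 in FBS against FSS (SE 0.15, limma adjusted p = 0.418). The glucocorticoid receptor gene Nr3c1 averaged 9.03 ± 0.36 in FBK, 8.71 ± 0.08 in FBS and 9.06 ± 0.17 in FSS (SD, n = 4 each), a change of −0.35 in FBS against FSS (SE 0.19, limma adjusted p = 0.510). Hsd11b1, whose enzyme regenerates active hormone, changed by −0.22 in FBS against FSS (SE 0.16, limma adjusted p = 0.666). Glucocorticoid targets such as Sgk1 are also expressed in oligodendrocytes. Markers of these cells lay below 0 for 7 of 7 in FBS against FSS, with a median of −0.66 and a smallest limma adjusted p of 0.319. In FBK against FSS 6 of 7 lay below 0 (median −0.49). Both are also comparisons between slides. In FBK against FBS, within slide B, 5 of 7 lay above 0 (median 0.06). The summed intensity of these markers was 32856 to 70809 in FBK, 22225 to 52572 in FBS and 40969 to 86871 in FSS. Its part in the values of the 9 genes was not tested.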

How the data were processed

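Per the file headers, the deposited intensity values are mean foreground and median local background per spot and dye channel, from Feature Extraction 11.5.1.1 (FSS slide) and 11.0.1.1 (the other slide). The submitters' processing notes name version 10.7.3.1. A deposited table of ratio values, with a median of 1 in each column, was used only as an alternative. Its columns of FSS1 and FSS2 matched the scanner data of FSS3 and FSS4 and the reverse, within 1 group, so FSS sample numbers may be exchanged between the arrays. Probe coordinates are on rn4, per the file headers.

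From the intensity values, log2 values were computed with normexp (offset 50), loess within arrays and Aquantile between arrays. Spots of controls and spots with an outlier mark were dropped, and the spots of each probe averaged. Between 71.4% and 81.5% of non-control spots were well above background per sample, none was saturated, and 2 arrays per group limited the precision. A probe was tested if 3 or more of the 4 samples in any group were well above background and each group had 3 or more values. The fit used limma 3.58.1 (R 4.3.3, statmod 1.5.0) with group and dye as terms and a random block for the array (correlation 0.555). All 12 samples were in 1 model, and p-values were 2-sided. The script was tested on simulated data. The spike-in slope of observed on expected log ratio was 0.492 and 0.542 on the FSS arrays and 0.873 to 0.881 on the others.

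The lead probe of a gene was its brightest. All 9 genes were named. From the other lists those past the threshold, or else the 3 with the smallest p in FBS against FSS, were named, and so were the 5 genes of most similar profile. Groups were taken from the labels. The genes and lists were chosen with earlier results of these data known. Alternatives covered signal correction, scaling, filters, blocks, damaged areas and left-out samples and arrays.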

Additional observations from a re-analysis of the deposited data

How the results depend on the processing

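Over 30 alternative settings per comparison, the number of the 9 genes past the threshold ranged from 0 to 1 in FBS against FSS, 0 to 3 in FBK against FSS and 0 to 1 in FBK against FBS. With no array block it was 1 in FBS against FSS and 1 in FBK against FSS (Nfkbia, limma adjusted p = 0.00622 and 0.0178), and all probes past the threshold then numbered 1032 and 861 (4.79% and 4%), against 46 and 17. Leaving out 1 sample gave 0 to 1 in FBS against FSS, 0 to 1 in FBK against FSS and 0 in FBK against FBS, the 1 being Nfkbia without FSS replicate 4 (0.199% and 0.109% of all probes passed). Without the array of FSS3 and FSS4 it was 1 in FBS against FSS (Nfkbia) and 2 in FBK against FSS (Nfkbia and Errfi1), with 1.72% and 1.91% of all probes. Without the array of FBK1 and FBK2 it was 1 in FBS against FSS (Nfkbia, limma adjusted p = 0.0346), with 2.37% of all probes. Without the array of FBK3 and FBK4 it was 1 in FBS against FSS (Nfkbia, limma adjusted p = 0.0380), 3 in FBK against FSS (Nfkbia, Fkbp5 and Sgk1) and 1 in FBK against FBS (Fkbp5), with 2.02%, 16.2% and 11.9% of all probes (435, 3490 and 2571). The cause was not tested.

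The Nfkbia change ran from 0.55 to 0.92 in FBS against FSS, passing in 5 of 30 settings, and from 0.38 to 0.63 in FBK against FSS, passing in 4. Of the other genes, Klf9 stayed above 0 and Errfi1 below 0 in all 30 settings of both comparisons with FSS, while Tsc22d3 changed sign in 6 of 30 in FBK against FSS. With array means in place of samples, the Nfkbia adjusted p from limma was 0.366 and 0.459. Scaling to the 75th percentile moved the median of all probes to −0.22 in FBS against FSS, 0.17 in FBK against FSS and 0.35 in FBK against FBS without loess, and to 0.11, 0.19 and 0.09 with the processed signals. All probes past the threshold ranged from 0 to 1032, 0 to 3490 and 0 to 2571 in the 3 comparisons. Same-numbered samples of 2 groups did not deviate together (12 pairs, r from −0.14 to 0.04, 0 over 0.1). With the replicate number as a block, 0 of the 9 genes passed in each comparison, with 4, 10 and 0 probes in all.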
